A study of Mus musculus with 8 samples.

Results

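Mouse chromosome 7 carried 996 of the 11180 regions that the authors called as differing in H3K27ac between Nrip1 KO and control myotubes. They were chosen by chromosome alone, as every region of either deposited list that lies on chromosome 7, and they comprised 973 regions with more of the mark in KO myotubes (increased) and 23 with less (decreased). On the other chromosomes the balance was the reverse, with 2944 increased and 7239 decreased regions. The mark, an acetyl group on lysine 27 of histone H3, was mapped by CUT&RUN, in which an antibody directs a nuclease to marked chromatin and the released DNA is sequenced. The 8 libraries formed 4 groups of 2, and each genotype had H3K27Ac and IgG libraries. The KO myotubes were described as strNrip1-/-, meaning that floxed Nrip1 alleles were deleted by Cre under the muscle creatine kinase promoter, which is on in heart and skeletal muscle, and the control myotubes were WT. All were grown from gastrocnemius satellite cells, passaged, and kept in differentiation medium for 4 days. The methods give sex (male or female) and an age range in weeks for all mouse studies together, and neither for these cultures. Nuclei were pooled before being divided between antibodies, and the supplier of the H3K27ac antibody differs between the labels and the methods.

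The direction of each region was set by the authors from a peak intensity difference of 2-fold or more. Neither list gives a value for a library or a fold for a region, so depth, the spread between the 2 replicates, the IgG background and the values of regions just inside or outside the threshold are unknown here. Because the chromosome was picked for its share of increased regions, that share is given as a description, with no test. Each share below has a 95% Wilson interval that covers counting error over regions only, and regions close to each other are not independent. The lists hold regions that differed and no others, so they could not be used to check the muscle identity of the cultures.

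H3K27ac is laid down by the acetyltransferases p300 and CBP on nucleosomes at active promoters and enhancers, and is removed by histone deacetylases. RIP140, the product of Nrip1, is a corepressor that nuclear receptors recruit and that in turn recruits deacetylases and CtBP proteins. In muscle and fat it is known for restraining oxidative and lipid metabolic genes. Mouse chromosome 7 holds muscle genes such as Ckm and Myod1, several imprinted clusters, and long arrays of olfactory and vomeronasal receptor genes, which are used in sensory neurons.

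Short sites from regions near metabolic and synaptic genes show what kind of DNA these regions held. All were read from GRCm38.p6, of which mm10 is another name, with the motif in capitals. The first set came from 3 increased regions at Dgat2, which encodes an enzyme of triglyceride synthesis and contained 5 E-boxes (CAGCTG, the core bound by myogenic helix-loop-helix factors), and it runs from inside the gene to far upstream. The sites are at chr7:99179666-99179695, chr7:99183005-99183034, chr7:99205332-99205361 and chr7:99205358-99205387, on the plus strand, and the last carries a TEAD motif (CATTCC).
Dgat2 intragenic E-box: ggtcatcataaaCAGCTGttgggattcttt
Dgat2 upstream E-box: agtacggtccagCAGCTGgaacgtgggcag
Dgat2 distal E-box: tttcttagagtgCAGCTGccgacactacct
Dgat2 distal TEAD: acctccacccaaCATTCCactcccaccatt

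The next set holds matches to a PPAR-type direct repeat (AGGTCA, any base, then AGGTCA again, with up to 2 mismatches allowed), the arrangement bound by PPAR with RXR. They lay in increased regions at Echs1, a mitochondrial enzyme of fatty acid oxidation (chr7:140116484-140116513, minus strand), and Abhd17c, a depalmitoylating enzyme (chr7:84185069-84185098, plus strand). Another match, with 1 mismatch, was in a decreased region in an intron of Kcnq1 (chr7:143315088-143315117, plus strand).
Echs1: agcccgctcAGGTCACGGGTCCacccctta
Abhd17c: gagaaaagAGCTCAACGGTCAggatcaaga
Kcnq1 intron, decreased: gtgtgtggAGGTCAGAGGACAacttgtagt

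The last set compares an E-box from each of the 2 decreased regions in Nav2 (chr7:48966425-48966454 and chr7:49029556-49029585) with one from an increased region at the start of Uqcrc2, a subunit of respiratory complex III (chr7:120635003-120635032), all on the plus strand. The same 6 bases stood in regions of either direction.
Nav2 decreased, near: cctacctcaagtCAGCTGagaactcctctt
Nav2 decreased, far: cttcacacagagCAGCTGcttaagactgct
Uqcrc2 increased: cggctgcagacgCAGCTGggattacaggct

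The increased regions ran along nearly the whole chromosome. The first began at base 3288937 and the last ended 476617 bp before the end of the 145441459 bp sequence. In windows of 10 Mb, the count of increased regions ranged from 19 in the first window to 142 in the window from 110 to 120 Mb, or 1.90 to 14.2 per Mb. The longest stretch without a decreased region held 240 increased regions, and 4 of the 15 windows had no decreased region. The density did not follow gene density: the window with the most increased regions held 69 protein-coding genes and the first window 141. Over the 15 windows, increased regions per Mb and protein-coding genes gave Pearson's r = -0.33 and Spearman's rho = -0.32, and r = -0.32 without receptor genes. These are descriptions over windows of 1 chromosome. A different number of copies of chromosome 7 in the KO or control cultures would bear on regions along its whole length, and since the lists do not measure copy number, its part in their direction was not tested.

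**Figure D1:**
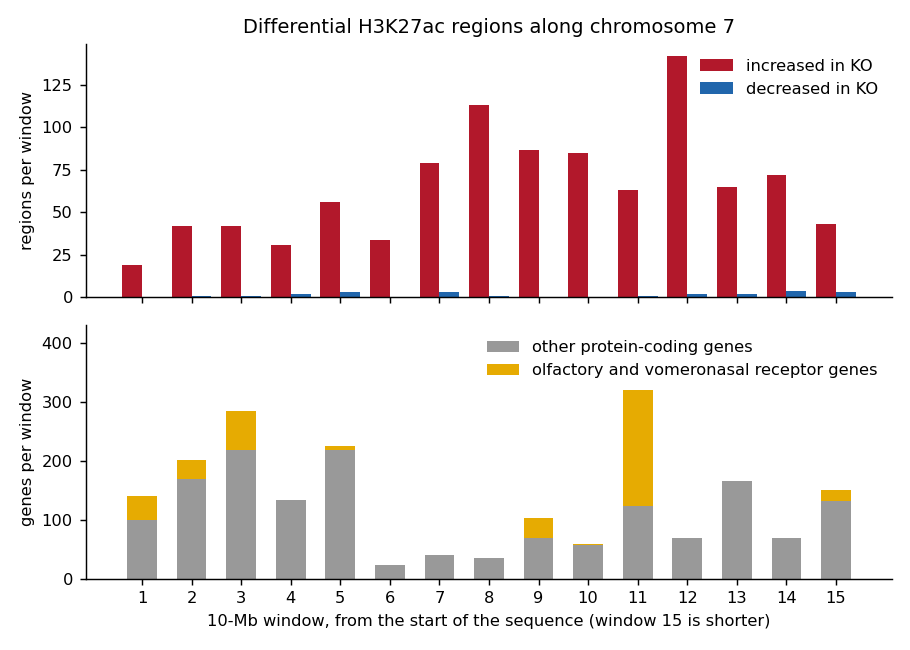
Increased and decreased regions in each 10 Mb window of chromosome 7 (upper panel, number of regions) and protein-coding genes in the same windows, with olfactory and vomeronasal receptor genes shown apart (lower panel, number of genes). Increased regions number 19 to 142 per window, decreased regions 0 to 4, and the fullest window is not the one richest in genes.

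Between neighbouring regions the median gap was 34275 bp, and 231 of the 995 gaps were at most 10 kb. The 20 gaps over 1 Mb included 8 over 3 Mb, which together spanned 31.4 Mb and held 347 protein-coding genes. Of these genes, 209 were olfactory or vomeronasal receptors. The longest gap, of 5.30 Mb, held 43 vomeronasal receptor genes among 59 genes. The gap of 4.18 Mb held 65 among 107, and the gap of 3.74 Mb held 68 olfactory receptor genes among 86. Other long gaps were poor in genes, such as one of 4.41 Mb with 10 protein-coding genes, or held none of these receptors, such as one of 3.17 Mb with 38 genes. Of the 398 receptor genes on the chromosome, 1 (0.251%) was the gene nearest to an increased region, against 400 of the other 1625 genes (24.6%). That 1 gene was Olfr543, whose start lay 4957 bp from the region and which was named after its values were seen. No receptor gene had an increased region within 1 kb of a start.

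The 23 decreased regions were spread over 11 windows and none was joined from several called peaks. They were 501 to 1437 bp wide, with a median of 780 bp, and had a GC content of 50.6% ± 4.69 (SD over regions), from 42.9% to 62.7%. In position, 13 lay in introns, 5 between genes, 3 within 1 kb of a start and 2 in non-coding exons. They were nearest to 21 genes, or 1.04% of the 2023 protein-coding genes on the chromosome (19.5% of genes elsewhere), and 17 lay inside a protein-coding gene. The lower share of genes than elsewhere followed from how the chromosome was picked. For 15 of the 23, the same gene was also nearest to an increased region. By gene this was 14 of the 21, against 19.8% of all protein-coding genes on the chromosome and 24.6% without receptor genes. The difference was not tested. The distance to the closest increased region ran from 4571 bp at Fam53b to 1336331 bp at Trim34a, with a median of 76413 bp, and 12 had one within 100 kb. The other 11 were over 100 kb from any increased region.

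The 3 decreased regions at promoters belonged to unlike genes, and 0.247% of protein-coding genes on the chromosome had a decreased region within 1 kb of a start. At Bcl3, an IκB family coregulator of NF-κB, the region (chr7:19821344-19822195) was centred 387 bp downstream of the start, and the closest increased region was 42868 bp away at Bcam. At Trim34a, a member of the TRIM family, the region (chr7:104244339-104245098) was 226 bp downstream of the start. Its neighbourhood stood apart, since no increased region lay within 1 Mb. The region at Pagr1b (chr7:127016272-127016917) was 111 bp upstream of the start and had the highest GC content of the 23, at 62.7%. Pagr1b overlaps the annotated gene Pagr1a, so the gene assignment there is uncertain.

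Several long genes held regions of both directions, at some distance from each other. Nav2, a neuron navigator that acts in axon outgrowth, had 2 decreased regions 7550 and 70671 bp downstream of a start, and 10 increased regions, the first of them 175400 bp beyond the second decreased region. Along Nav2 the decreased regions thus lay toward the 5′ end and the increased ones toward the 3′ end, with no mixing. Sox6, a transcription factor known for repressing slow fibre genes, had 1 decreased intronic region (chr7:115564227-115565335, 1109 bp) and 7 increased ones, all on the same side of it. Sv2b, a synaptic vesicle protein, had 7 increased regions and 1 decreased region of 1308 bp (chr7:75302507-75303814) that lay in an intron between 2 of them. Syt17, of the synaptotagmin family, had an increased region 244 bp from a start and a decreased one 39247 bp downstream of a start.

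The widest decreased region, of 1437 bp (chr7:132775172-132776608), lay in Fam53b 4571 bp from an increased region. Close pairs of opposite direction also occurred at Lrrc28 (6570 bp), Gm498 (9648 bp) and Chsy1, a chondroitin sulphate synthase (9674 bp). Decreased regions in Chst8, a sulphotransferase (chr7:34808046-34809021), and in Pepd, which encodes the peptidase prolidase (chr7:34920623-34921286), were 111601 bp apart. Neither had an increased region within 100 kb. Otud7a, a deubiquitinase, had a decreased intronic region at the edge of the 4.41 Mb gap. The decreased region nearest to Myh14, a non-muscle myosin heavy chain, was 15217 bp upstream of its start.

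The remaining decreased regions were assigned to genes at a distance or by a neighbouring start. The region assigned to Ccdc97 was in an intron of Hnrnpul1, 21845 bp from an increased region, and the one assigned to D430042O09Rik was in that gene, 110041 bp from the closest increased region. Those nearest to Ebf3, a transcription factor of the EBF family, and Glrx3, a glutaredoxin, lay between genes, 28948 and 88289 bp from a start, and each gene had increased regions as well. The region assigned to Mgmt, a DNA repair enzyme, was 551877 bp upstream of its start, so the assignment says little beyond position.

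A pair of decreased regions stood in introns of Kcnq1, a potassium channel gene in an imprinted cluster. They lay at chr7:143301974-143302891 and chr7:143314459-143315219, 11567 bp apart. The start of Kcnq1ot1, the long non-coding RNA that silences neighbouring genes in cis on the paternal chromosome, was 5884 bp from the first and 18290 bp from the second. The nearest protein-coding start for both was that of Cdkn1c, an imprinted inhibitor of cyclin-dependent kinases, 156878 and 144472 bp away. No increased region lay within 100 kb of either, and the closest, in Cars, was 254958 and 242630 bp away.

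**Figure D2:**
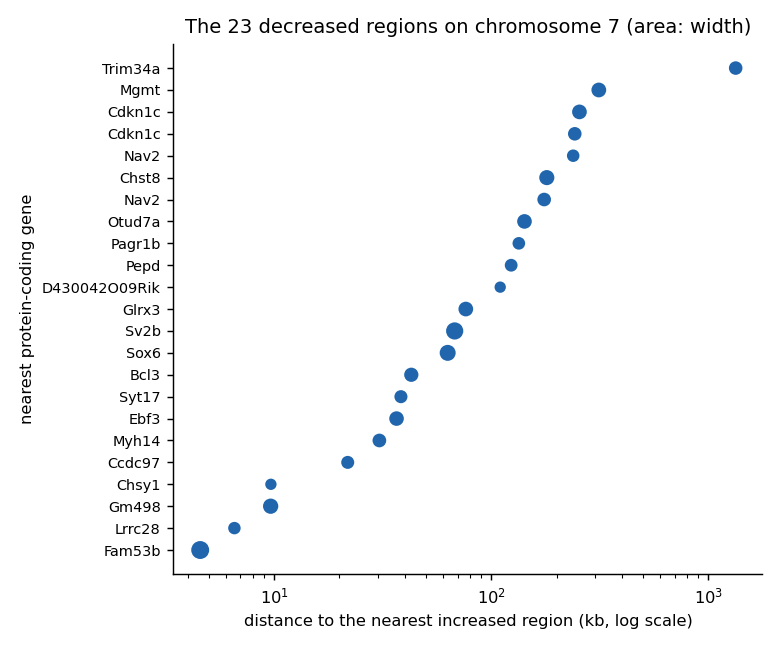
The 23 decreased regions of chromosome 7, each named by its nearest protein-coding gene, with the distance to the closest increased region (kb, log scale) and a point area that follows its width. The distances run from 4571 bp at Fam53b to 1336331 bp at Trim34a, and 4 regions have an increased region within 10 kb.

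Increased regions on chromosome 7 were more often at promoters than increased regions elsewhere. Within 1 kb of an annotated start lay 221 of 973 (22.7%, interval 20.2 to 25.5), against 373 of 2944 on the other chromosomes (12.7%, 11.5 to 13.9) and 812 of 7239 decreased regions there (11.2%, 10.5 to 12). Among the chromosomes with at least 50 increased regions, chromosome 7 had the highest share, and the others ranged from 4.55% on chromosome 16 to 18.9% on chromosome 11. On chromosome 10, which had 453 increased regions, the share was 9.93% (7.51 to 13.0). Within chromosome 7, the share varied from 8.82% to 52.6% over the windows of 10 Mb. The difference between chromosomes was not tested. These shares were not set against the density of annotated starts on each chromosome, whose part in them is unknown here.

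At protein-coding starts, 190 increased regions named 176 genes. The centre lay downstream of the start in 120 (63.2%) and upstream in 70, at a median distance of 325.5 bp. An annotated start of any kind of gene was covered by 125 regions (65.8%). Distal regions were fewer in turn. The median distance to a protein-coding start was 12215 bp, against 31411 bp for increased regions on the other chromosomes and 17102 bp for decreased regions there. Chromosome 4 had a shorter median for its increased regions, 11691.5 bp, and the density of starts was not taken into account. Regions over 100 kb from any protein-coding start made up 14.9% on chromosome 7 and 26.3% of increased regions elsewhere. Introns held 471 regions (48.4%) and intergenic DNA 254 (26.1%), against 45.5% and 39.2% elsewhere.

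**Figure D3:**
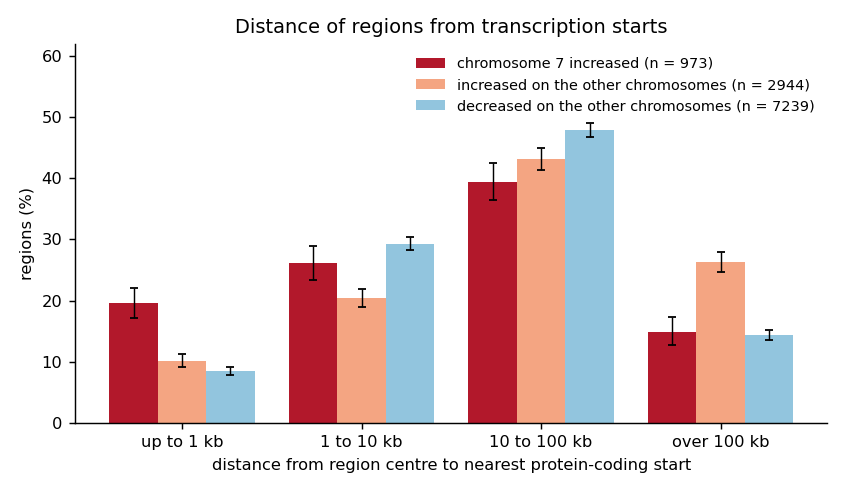
Share of regions (%) by distance from the region's centre to the nearest protein-coding start, for increased regions on chromosome 7, increased regions on other chromosomes and decreased regions on other chromosomes, with 95% Wilson intervals. Up to 1 kb, the shares are 19.5%, 10.2% and 8.43%, and beyond 100 kb they are 14.9%, 26.3% and 14.4%.

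The increased regions of chromosome 7 were also wider. Their median width was 943 bp (quartiles 633 and 1560), against 754.5 bp (501 and 1093) for increased regions elsewhere. As read from the regions' names, 165 (17.0%, 14.7 to 19.4) had been joined from several called peaks, against 7.27% (6.39 to 8.26). At least 3 kb wide were 51 regions (5.24%), against 1.94%. Their GC content was 46.1% ± 5.45, against 42.7% ± 5.33 (SD over regions), and away from promoters it was 45.0% against 42.1%. Chromosome 7 ranked first among the compared chromosomes in median width, in GC content and in the joined share. Decreased regions on the other chromosomes had a median width of 864 bp, a GC content of 48.0% and a joined share of 7.79%, so that in width and GC content the increased regions of chromosome 7 were nearer to those than other increased regions were.

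**Figure D4:**
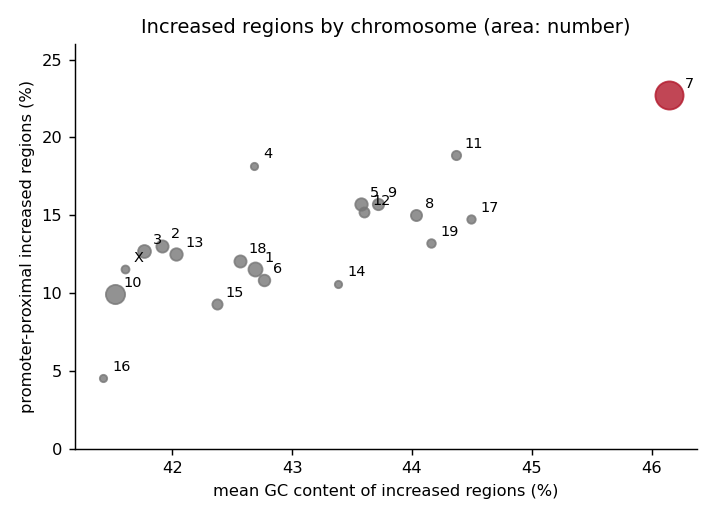
Promoter-proximal share of increased regions (vertical axis, %) against their mean GC content (horizontal axis, %), with a point for each chromosome that has at least 50 increased regions and a point area that follows their number. Chromosome 7 (red) is the highest on both axes, at 22.7% and 46.1%, and chromosome 10, with the next largest point, is at 9.93% and 41.5%.

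Of the 2023 protein-coding genes on chromosome 7, 401 (19.8%) were nearest to at least 1 increased region, against 9.72% of genes on the other chromosomes, and 56.2% had one within 100 kb of a start (68.4% without the receptor genes). The chromosome was picked for its increased regions, so a higher share of genes than elsewhere followed from that choice. Regions were shared unevenly: 224 genes were nearest to 1 region each, while 52 genes with 5 or more accounted for 416 regions (42.8%). The most regions were nearest to Slco3a1, an organic anion transporter (18), Nr2f2, the nuclear receptor COUP-TFII (17), Rgma, a repulsive guidance molecule (17), and Vstm2b (15). For Vstm2b the closest region was 442563 bp upstream of the gene, so this cluster lay between genes or in introns of other annotated genes and not at Vstm2b itself.

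The other genes with many regions were of several kinds. Eif4g2, a translation initiation factor, was nearest to 13 regions, of which 2 were at its start (207 bp downstream and 587 bp upstream) and the rest extended upstream to 249239 bp. Chd2, a chromatin remodeller, had 11 regions with 3 within 1 kb of its starts. Igf1r, the receptor for insulin-like growth factor 1, had 11 regions covering 17737 bp, of which 9 were intronic, the closest 4774 bp from a start. Akap13, an anchoring protein for protein kinase A, and Galnt18, a glycosyltransferase, had 11 each, with all 11 of Galnt18 centred inside the gene. Dlg2, a synaptic scaffold protein, had 12 regions, all intronic, and Tenm4, a teneurin of synapses, had 11, of which 8 lay between genes up to 929527 bp upstream.

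Among the widest increased regions, the first, at Akip1, spanned 12878 bp. Sytl2, which encodes a vesicle-docking protein, held 2 of the next, a region of 6527 bp joined from 5 called peaks and centred 4 bp from a start (chr7:90383722-90390248) and one of 6019 bp in an intron (chr7:90331943-90337961). Gprc5b, an orphan G protein-coupled receptor, had an intronic region of 6394 bp (chr7:118960975-118967368). In Sae1, a subunit of the enzyme that activates SUMO, a single called peak of 6142 bp lay in an intron (chr7:16361073-16367214).

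A minority of the mitochondrial genes had an increased region near a start. Of 20 mitochondrial genes on chromosome 7, 6 (30%) had an increased region within 1 kb of a start, against 9.94% of all protein-coding genes on the chromosome and 12.4% without the receptor genes. Beside Uqcrc2, these were Ucp2, an uncoupling protein (31 bp), Etfb, of the electron transfer flavoprotein (241 bp), Coq7, of coenzyme Q synthesis (252 bp), Sirt3, a mitochondrial deacetylase (406 bp), and Tufm, the mitochondrial elongation factor (457 bp). At Uqcrc2, 1 region was centred 891 bp upstream of the 5′ start and a wider one of 1886 bp was 325 bp downstream of a further annotated start (chr7:120634897-120636782). The region near the start of Sirt3 was closer to the start of Psmd13, so the region's gene is uncertain. Counted by nearest gene, 5 of the 20 (25%) were reached, against 19.8% of all genes and 24.6% without receptor genes, so that this share was near the background, and the median distance of the list to an increased region was 22404 bp, against 71911 bp over all protein-coding genes and 43017 bp without receptor genes. No mitochondrial gene of the list was nearest to a decreased region, where only 1.04% of all protein-coding genes on the chromosome were. Every gene list, here and below, was drawn up with earlier results of these data known, so shares above the background may follow from that choice.

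Of 18 lipid metabolism genes, 3 (16.7%) were nearest to an increased region and 2 (11.1%) had one within 1 kb. Without receptor genes these shares were 24.6% and 12.4% over the chromosome, so the list was near or below the background in both. Dgat2 had a region of 1322 bp inside the gene (chr7:99179196-99180517, 436 bp from an internal start), one of 935 bp centred 554 bp upstream of its 5′ start (chr7:99182806-99183740) and one of 794 bp 22767 bp upstream (chr7:99205089-99205882). The region at Echs1 (chr7:140116308-140117629, 1322 bp) was joined from 2 peaks and centred 493 bp upstream. Abhd2, a hydrolase that acts on lipids, had 3 regions, the widest of 5955 bp in an intron. The list's median distance was 60935 bp, longer than the 43017 bp of chromosome 7 genes other than receptors, so Dgat2 and Echs1 did not stand for the list. Dgat2, Echs1 and Abhd17c were named by the study from the overlap of these same peaks with gastrocnemius RNA-seq, so their having increased regions is not independent evidence. For Dgat2 the study also reported higher expression in KO myotubes, and tagged RIP140 at the promoter in a myotube line overexpressing it. The paper states that this promoter region holds a known PPAR motif, while the repeat searched here had no match in the 3 Dgat2 regions.

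Of 12 genes of glucose and amino acid metabolism, 2 (16.7%, background 24.6% without receptor genes) were nearest to an increased region and none had one within 1 kb of a start (background 12.4%), with a median distance of 87846.5 bp. They were Oat, ornithine aminotransferase, with 2 regions, the closer 2713 bp from a start, and Aldh1a3, a retinaldehyde dehydrogenase, with 2 regions 10731 and 22542 bp upstream. Ckm, the muscle creatine kinase whose promoter drove Cre in these mice, was 45810 bp from the closest increased region and was nearest to none.

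Of 9 sarcomere and contractile genes, 2 (22.2%) were nearest to an increased region, close to the background of 19.8% over all genes and 24.6% without receptor genes, and 8 (88.9%) had one within 100 kb, against 68.4% without receptor genes. Of the 9, 1 was nearest to a decreased one, Myh14. Actn4, a non-sarcomeric α-actinin, had 3 increased regions, of which 2 were near internal annotated starts (116 bp upstream and 897 bp downstream of a start). Both of these lay inside the gene, far from its 5′ end. Mylpf, the fast skeletal regulatory light chain, had a region of 1247 bp centred 1074 bp downstream of its start (chr7:127209350-127210596). The list's median distance was 18656 bp, so increased regions lay near several of these genes without their start being the nearest one. Examples, named after their values were seen, were the troponin genes Tnnt1 (6917 bp) and Tnni2 (18607 bp). Of 22 genes of excitation-contraction coupling and ion channels, 3 (13.6%, background 24.6%) were nearest to an increased region, none within 1 kb, and their median distance was 84719 bp. Ano5, a muscle anoctamin, was nearest to 8 regions, all upstream, from 33543 to 264457 bp away. Stim1, the calcium sensor of the sarcoplasmic reticulum, had 5 intronic regions, and Trim72, a membrane repair protein of muscle, had 5 regions in the intergenic stretch between 7515 and 20126 bp downstream of its start.

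Of 21 muscle and circadian transcription factors, 9 (42.9%) were nearest to an increased region, against 24.6% of chromosome 7 genes other than receptors, while 2 (9.52%) had one within 1 kb, near the background of 12.4%. Tead1, which binds muscle CAT elements, had 8 intronic regions covering 18100 bp. Mef2a, a factor of muscle differentiation, also had 8, the closest 2187 bp from a start, and Arntl, the clock factor BMAL1, had 9, of which 5 lay between genes upstream. The promoter regions were at Tead2, 27 bp from an annotated start inside the gene, and Cebpg, a bZIP factor, 681 bp downstream of a start. Bcl3 and Sox6, described above, were the list's genes with a decreased region, and the list's median distance to an increased region was 21473 bp. The list's higher nearest-gene share may follow from how its members were chosen.

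Of 9 genes for nuclear receptors, coregulators and chromatin enzymes, 3 (33.3%) were nearest to an increased region and 3 (33.3%) had one within 1 kb, Sirt3 among them, against 24.6% and 12.4% of chromosome 7 genes other than receptors. Ctbp2, which encodes a corepressor of the CtBP family that RIP140 binds, had 5 increased regions. Its region at the start spanned 2222 bp (chr7:133123016-133125237), was centred 227 bp downstream and had a GC content of 64.3%. Eed, a subunit of the Polycomb complex PRC2, had 4 regions, the closest 109 bp upstream of its start. The list's median distance was 24265 bp.

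Genes of the neuromuscular junction and synapse were reached by 57 increased regions, of which most were at 4 genes. Of 23 genes, 9 (39.1%) were nearest to an increased region and 5 (21.7%) had one within 1 kb, against 24.6% and 12.4% of chromosome 7 genes other than receptors, and the median distance was 27891 bp. Beside Rgma, Dlg2, Tenm4 and Nav2, these were Abhd17c, Pak1, a kinase acting on the cytoskeleton, and Sema4b, Syt17 and Cttn. Within 1 kb of a start, Sema4b, a semaphorin, had its region 600 bp downstream, Syt17 244 bp downstream, and Cttn, the actin-binding protein cortactin, 264 bp upstream. In these 3 genes and in Nav2 that start was an internal one, and the region lay inside the gene, over 1 kb from its 5′ end. The 2 regions of Abhd17c were an intronic one of 1870 bp (chr7:84120204-84122073) and one of 501 bp 33002 bp upstream of a start (chr7:84184645-84185145). Nav2 and Syt17 were the genes of this list with decreased regions too. Nearest-gene counts depend on gene length and spacing, for which the background was not matched. Abhd17c was named by the study from these same peaks.

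Of 29 growth factor, matrix and vessel genes, 14 (48.3%) were nearest to an increased region, against 24.6% of chromosome 7 genes other than receptors, and 9 when starts of every kind of gene were counted. Within 1 kb, 2 (6.90%) had one, below the background of 12.4%, and the median distance was 28040 bp. After Igf1r, Rras2, a RAS family GTPase, had 6 regions, the closest 1724 bp from its start. Dock1, an activator of Rac in myoblast fusion, had 3, of which 1 was 175 bp from an annotated start, and Nell1, Adamtsl3 and Spon1, which encode secreted matrix proteins, had 3 each. The second gene with a region within 1 kb was Fgfr2, a fibroblast growth factor receptor, through an annotated start that lies in the region at the start of Ctbp2. As this list too was drawn up with earlier results known, its share above the background may follow from that choice.

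**Figure D5:**
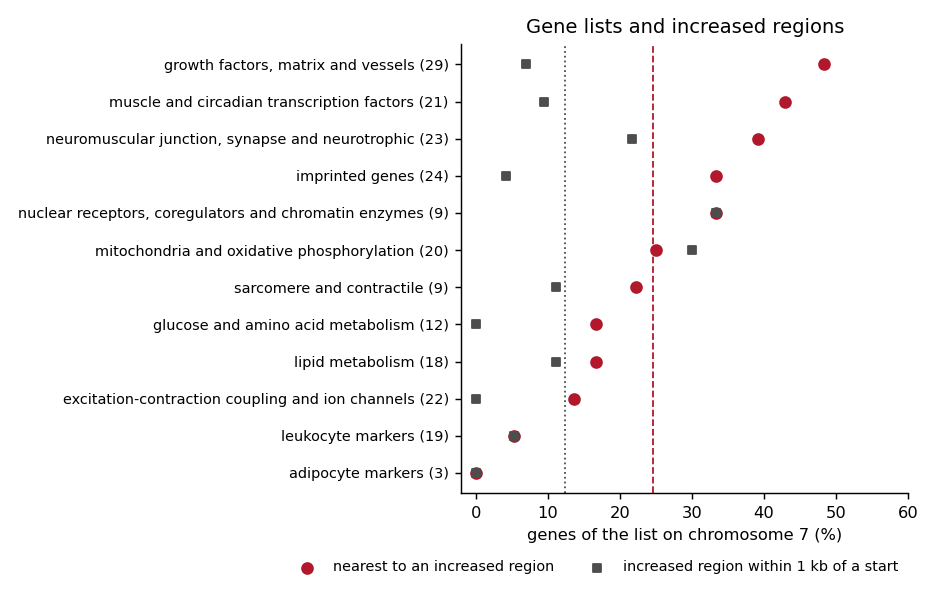
Share (%) of the chromosome 7 genes of each list that were nearest to an increased region (red circles) and that had one within 1 kb of a start (dark squares), with the number of genes in brackets. The dashed and dotted lines give these shares over all chromosome 7 protein-coding genes other than receptor genes, 24.6% and 12.4%, and lists reached by nearest gene are not always those reached at promoters.

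Imprinted genes on chromosome 7 were reached unevenly. Of 24 protein-coding genes, 8 (33.3%, background 24.6% without receptor genes) were nearest to an increased region, 1 (4.17%, background 12.4%) had one within 1 kb and 1, Cdkn1c, was nearest to the decreased pair in Kcnq1. Atp10a, a phospholipid transporter, had 7 increased regions, and Usp29, a deubiquitinase, and Ampd3, an AMP deaminase, had 3 each. The gene with a region at its start was Tnfrsf23, a decoy receptor of the TNF family (117 bp upstream). The list's median distance was 50131 bp.

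Genes of other cell types were also looked up. Of 19 leukocyte genes on the chromosome, 1 (5.26%, background 24.6% without receptor genes) was nearest to an increased region, Il21r, the interleukin 21 receptor, with a region 15 bp from an annotated start. The list's median distance was 72150 bp. Of 3 adipocyte genes, none was nearest to an increased region and the median distance was 64034 bp. Neither list had a gene nearest to a decreased region, where only 1.04% of all protein-coding genes on the chromosome were. The lists record positions and no levels, so they do not show whether such cells were present.

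Motif content separated the increased regions of chromosome 7 little from those elsewhere. In the central 500 bp, 31.6% (28.7 to 34.5) held the E-box, against 27.9% (26.3 to 29.6) elsewhere. The AP-1 motif TGACTCA was in 16.2% against 16.6%, the TEAD motif in 30% against 30.9%, and the RUNX motif TGTGGTT in 13.9% against 14.0%. The PPAR-type repeat, whose AGGTCA unit overlaps the ERR motif, was in 6.17% against 6.22%, the ERR motif TCAAGGTCA in 0.925% against 0.917%, and the MEF2 consensus in 2.47% against 2.96%. The ETS motif CCGGAAG, common at promoters with high GC content, was in 3.29% (2.34 to 4.61) against 1.94% (1.5 to 2.5). Of the 23 decreased regions, 12 (52.2%, 33.0 to 70.8) held the E-box, against 37.9% of decreased regions elsewhere. Both strands were searched, and a match shows that the letters are there and nothing about binding.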

How the data were processed

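Per the labels and methods, the authors aligned paired reads to mm10 with BWA-MEM2 2.2.1, called broad peaks with HOMER 4.11 and kept regions differing 2-fold or more in peak intensity. How replicates and IgG entered the calls is not stated. The deposited score column is 1 in every region and was not used. The number that ends each region's name was read as its count of joined peaks, a reading that was not checked. Peak intensity also scales with depth, reaction efficiency and DNA copy number, which the lists do not record, and their part in the calls was not tested. The members and gene lists were chosen with earlier results of these data known.

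Intervals were read as half-open and are given from base 1, and 0 ended beyond a chromosome. Genes and starts came from GENCODE M21 (55413 genes, 21938 protein-coding) and sequence from GRCm38.p6 in RefSeq. A region was assigned to the nearest protein-coding start from its centre, and was promoter-proximal within 1 kb of any annotated start. An interval gives the 95% Wilson bounds of a share. Where a gene has several starts, the closest was used. The 13 gene lists are counts beside the chromosome's genes. The text names the study's genes on this chromosome, the nearest gene of each decreased region, the genes with the most increased regions, the 5 widest increased regions, list genes with a promoter region or the most regions, Ckm and Ctbp2. Genes that 10 places could not separate were all named. The computation of the nearest start, checked on simulated positions close to isolated starts, returned that start for 100% of 200 centres. Such positions do not show whether the nearest gene is the right one for a region, or how crowded starts fare. Python 3.11.15, pandas 2.3.3 and SciPy 1.17.1 were used. No test across regions was run, since no value per library was given.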

Additional observations from a re-analysis of the deposited data

How the results depend on the processing

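No paired analysis was possible because the lists hold no value per library, and for the same reason no replicate could be left out and no stricter fold applied. Of 84 alternatives over 32 results, 46 stayed within the spread or within 1.5 times the reported count and 38 moved. With regions of at least 1 kb, chromosome 7 held 453 increased and 4 decreased regions (99.1% increased). With regions joined across 100 kb it held 261 increased ones (92.6%). The promoter share on chromosome 7 and on the other chromosomes was 3.91% and 1.77% within 0.1 kb, 34.0% and 20.1% within 2.5 kb, 28.5% and 15.9% from any base of the region, and 19.5% and 10.2% at protein-coding starts, and elsewhere it was 11.0% in regions of at least 1 kb. Chromosome 7 had the higher share under each of these distances. Counting every gene with an increased region within 100 kb of a start gave 1136 genes in place of 401. With the nearest gene of any kind, the coupling and channel genes reached fell from 3 to 0, those of glucose and amino acid metabolism from 2 to 1 and those of growth factors, matrix and vessels from 14 to 9. Motif shares over whole regions were higher, since wider windows were searched. The cause of the other moves was not tested.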
